A study of Mus musculus with 6 samples.

Results

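The ATP-binding cassette (ABC) pumps and organic anion transporting polypeptides of the brain barriers are described here through 10 genes: Abcb1a, Abcg2, Abcc1, Abcc4, Abcc5, Slco1a4, Slco1a5, Slco1c1, Slco2b1 and Slco3a1. They were taken by gene symbol, and all 10 were found among the 33696 genes listed in the count matrices. The study profiled freshly dissociated mouse brain cells by droplet-based 3′ single-cell RNA sequencing in 6 libraries. There were 2 libraries of TRPM2 Mg KO mice given bilirubin, 2 of wild-type (WT) mice given bilirubin and 2 of WT mice given vehicle, the solution without the compound. No vehicle library of the knockout was analysed here, so the knockout can be set against WT under bilirubin only, and its comparison with WT vehicle changes genotype and treatment together. The labels do not say which cells "Mg" stands for, the dose or duration of bilirubin, the age or sex of the mice, or how many animals made up a library. The p-values therefore measure the spread between libraries, which may be technical in part.

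The barriers of the brain include the endothelium of its blood vessels and the epithelium of the choroid plexus, the tissue that secretes cerebrospinal fluid. ABC pumps use ATP to push drugs, conjugated hormones and other organic anions out of cells. The organic anion transporting polypeptides, encoded by the Slco genes, mostly carry such anions into cells. Unconjugated bilirubin, the breakdown product of haem, is itself an organic anion, and pumps of both ABC subfamilies B and C have been studied as part of the brain's defence against it. In mice the endothelial pumps Abcb1a (P-glycoprotein) and Abcg2 (breast cancer resistance protein) limit the entry of many drugs, and Slco1c1 carries thyroxine into the brain.

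The files held 95014 cell barcodes with 248584636 unique molecular identifiers (UMIs, 1 per captured transcript), between 24165563 and 63402551 per library. The median mitochondrial share of kept cells, a sign of cell and RNA quality, was 5.59% and 3.80% in TRPM2 Mg KO bilirubin, 7.23% and 0.657% in WT bilirubin, and 1.04% and 0.836% in WT vehicle. The WT bilirubin libraries thus stood apart from each other, and some results are given below without 1 of them. After filtering, 79765 cells were kept, 3997 to 19579 per library, and at most 0.943% of the smaller library's barcodes were shared between any 2 libraries. Cells were clustered without the 10 transporters, and clusters were named by marker genes, 12 for each of the 6 classes used here. A class called "endothelial-like" is one that carries those markers, summed to at least 50% of their level in the highest cluster. The 6 classes used here held 3807 endothelial-like, 12302 choroid plexus-like, 1458 ependymal-like, 499 mural-like, 1717 astrocyte-like and 7950 microglia-like cells, together 34.8% of the kept cells. Every marker had UMIs in its class in all 6 libraries. All 12 markers exceeded 2 times their whole-library level in every library in the endothelial-like, ependymal-like and microglia-like classes, as did 10 in the mural-like and 9 in the astrocyte-like class. None of the 12 choroid plexus markers did so in all 6 libraries in the choroid plexus-like class, where they summed to 98531 to 210483 CPM (counts per 1000000 UMIs), against 13342 to 131404 CPM in whole libraries. Different clusters made up the choroid plexus-like and microglia-like classes in vehicle and bilirubin libraries. One cluster gave 92.0% and 77.3% of the choroid plexus-like cells of the vehicle libraries, another 97.2% of WT bilirubin library 2, and another 89.4% to 91.6% in the remaining bilirubin libraries. Of the microglia-like cells, 1 cluster held 88.8% to 97.5% in the bilirubin libraries and another 97.4% and 99.8% in the vehicle libraries.

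Trpm2, the gene named in the knockout label and coding for a calcium-permeable channel, was detected in all libraries. Its microglia-like level was 17.6 and 18.9 CPM in the TRPM2 Mg KO bilirubin libraries, 19.0 and 38.1 CPM in the WT bilirubin libraries, and 20.8 and 12.6 CPM in the WT vehicle libraries. Both knockout libraries lay below both WT bilirubin libraries, the nearest by 18.9 against 19.0 CPM, and both lay between the vehicle libraries, so a low Trpm2 level did not set the knockout apart from all WT libraries. A 3′ tag outside the deleted part would check nothing, and the sources used here do not name the deleted part.

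Of the 10 genes, 8 had an upstream sequence in the RefSeq table of GRCm38.p6. The 250 bases before the start are shown for Abcb1a, Slco1a4 and Slco1c1, the endothelial transporters with a single listed start, so that a reader can see what lies before the genes whose levels stood out in endothelial-like cells. They are written 5′ to 3′ on the strand of the gene, and capitals mark AGGAAG or its reverse complement CTTCCT, the core of ETS-family motifs. Abcb1a lies on the plus strand (chr5:8566841-8567090), Slco1a4 on the minus strand (chr6:141856221-141856470) and Slco1c1 on the plus strand (chr6:141524104-141524353).
Abcb1a: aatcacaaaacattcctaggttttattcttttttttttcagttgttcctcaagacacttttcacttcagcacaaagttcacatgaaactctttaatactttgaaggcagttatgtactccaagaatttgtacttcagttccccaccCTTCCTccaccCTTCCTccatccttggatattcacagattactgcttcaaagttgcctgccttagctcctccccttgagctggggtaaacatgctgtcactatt
Slco1a4: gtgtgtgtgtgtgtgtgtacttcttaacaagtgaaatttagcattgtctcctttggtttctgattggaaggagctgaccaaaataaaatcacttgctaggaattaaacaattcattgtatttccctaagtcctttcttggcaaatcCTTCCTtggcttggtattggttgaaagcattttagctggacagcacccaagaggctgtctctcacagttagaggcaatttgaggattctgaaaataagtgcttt
Slco1c1: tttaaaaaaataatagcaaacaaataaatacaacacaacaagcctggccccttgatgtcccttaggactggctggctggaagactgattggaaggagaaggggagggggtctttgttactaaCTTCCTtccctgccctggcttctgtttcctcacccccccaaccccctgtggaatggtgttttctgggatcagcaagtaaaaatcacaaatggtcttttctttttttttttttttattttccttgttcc

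The 6 letters occurred on either strand in 4 of the 8 members with a sequence (Abcb1a, Abcg2, Slco1a4 and Slco1c1) and in 29.2% of 27025 mouse promoter windows of the same length. The Abcb1a window held 2 matches, 104 and 93 bases before the start. GC content was 40.4% for Abcb1a, 39.2% for Slco1a4 and 42.8% for Slco1c1, against a median of 52% over all windows. Of 3 other motifs searched on both strands, GCGTG (aryl hydrocarbon receptor core) and TGACNNNGC (antioxidant response element core) were found in the Abcc4 window only, and TATAAA (core of a TATA box) in the Slco1a5 window only. They occurred in 28.2%, 10.1% and 13% of all windows. These matches describe the letters and say nothing of factor binding. On chromosome 6, Slco1c1, Slco1a4 and Slco1a5 stand in 1 run of Slco genes, in the order Slco1c1, Slco1b2, Gm5724, Slco1a4, Slco1a1, Gm6614, Slco1a6, Slco1a5. The Slco1a genes resemble one another closely, as do Abcb1a and Abcb1b, so reads of near-identical stretches could have been split between them.

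The 10 transporters fell into different places. Of 60 pairs of a transporter and a class, 14 were above the gene's whole-library level in all 6 libraries, and 8 were above 2 times that level. Among the 6 classes, Abcb1a, Abcg2, Abcc4, Slco1a4 and Slco1c1 were highest in endothelial-like cells in 6 of 6 libraries. Slco2b1 was highest in microglia-like cells and Slco3a1 in mural-like cells, each also in 6 of 6 libraries. Abcc1, Abcc5 and Slco1a5 had no class that led in every library. Classes were chosen by markers from the same cells, so these orders are descriptions without a test. A 3′ tag counts transcripts whatever their length, and a level here is the gene's UMIs as a share of the UMIs of that class in the library, in CPM.

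**Figure D1:**
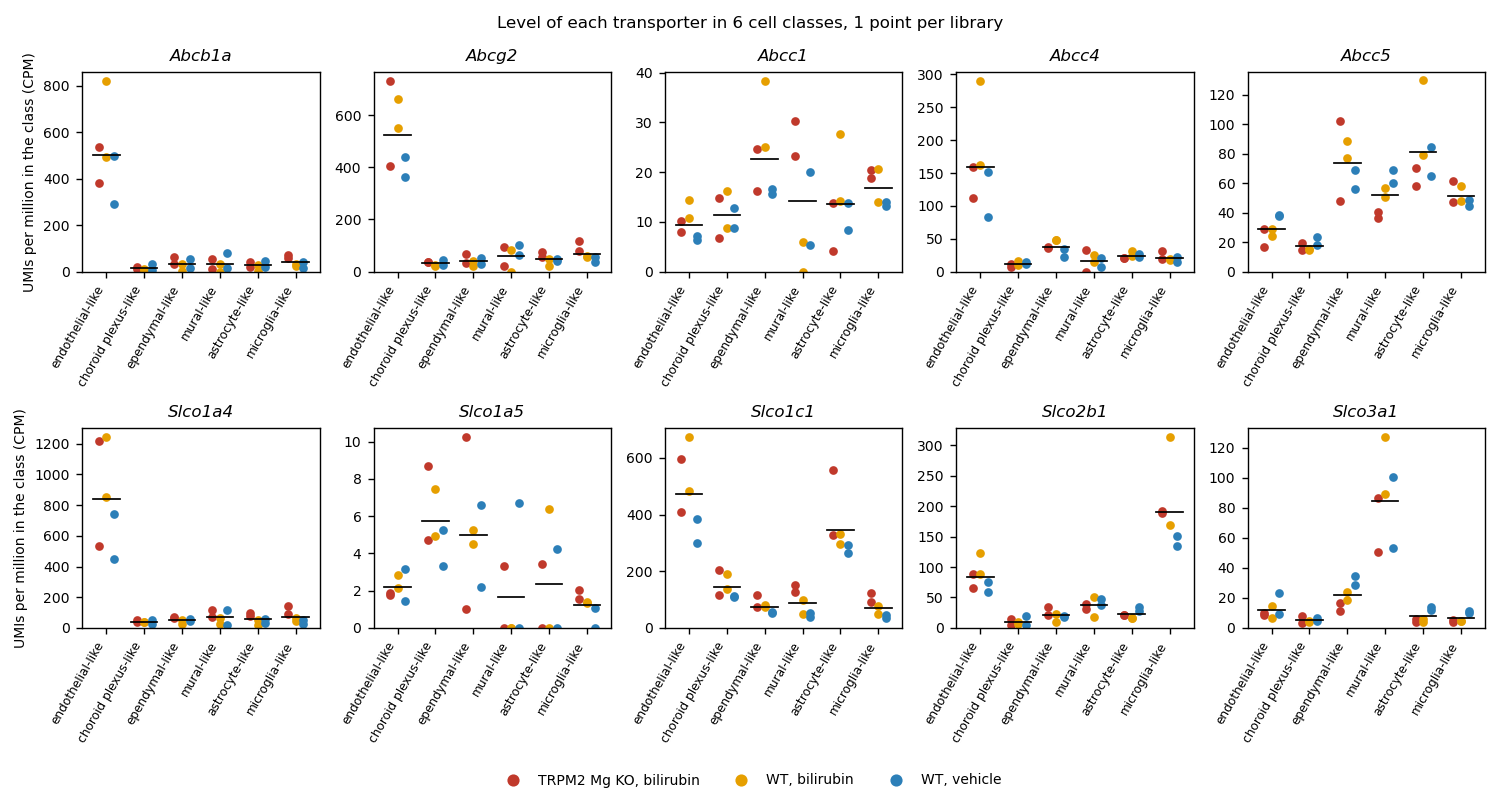
Level of each transporter, in CPM of the class (linear axes from 0), in 6 marker-named cell classes. Each point is 1 library, coloured by group, and each bar is the mean over 6 libraries. Slco1a4 averaged 839.7 CPM in endothelial-like cells and at most 68.9 CPM in the other classes, Slco2b1 stood highest in microglia-like cells, and Slco3a1 in mural-like cells.

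Slco1a4, a mouse uptake carrier of bile salts and steroid conjugates, had the highest mean level of the 10 in endothelial-like cells. It had 1219.8 and 536 CPM in the TRPM2 Mg KO bilirubin libraries, 853 and 1242 CPM in the WT bilirubin libraries, and 741 and 447 CPM in the WT vehicle libraries there. Its mean, 839.7 ± 336 CPM (SD, n = 6), was 12.2 times that of the next class. Endothelial-like cells held 44.7% of all Slco1a4 UMIs of the kept cells but 5.57% of all UMIs. After each cell was thinned to 1000 UMIs, a Slco1a4 UMI was found in 53.7% of endothelial-like cells (39.0% to 67.3% over libraries; 71.1% without thinning). The thinned share was 4.68% to 6.67% in the other classes, among them microglia-like cells (6.25%), which are not known for this carrier. Median UMIs per cell ran from 1127 to 3560 over the libraries in endothelial-like and from 1708 to 4441 in microglia-like cells. By group, the thinned microglia-like share was 10.3% ± 1.22 in TRPM2 Mg KO bilirubin, 4.59% ± 2.02 in WT bilirubin and 3.86% ± 1.36 in WT vehicle (SD, n = 2 each). The low shares outside the endothelial-like class are not read as expression of the carrier there, and their source was not tested.

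Abcb1a and Abcg2, the drug efflux pumps, had the same place. Abcb1a had 536 and 381 CPM in endothelial-like cells of the TRPM2 Mg KO bilirubin libraries, 492 and 820.4 CPM in WT bilirubin, and 497 and 291 CPM in WT vehicle. Its mean of 503 ± 179.8 CPM (SD, n = 6) was 12.4 times that of microglia-like cells, the next class. Abcg2 had 729.8 and 405 CPM in endothelial-like cells of the TRPM2 Mg KO bilirubin libraries, 549.7 and 663 CPM in WT bilirubin, and 441 and 363 CPM in WT vehicle, with a mean of 525 ± 148 CPM (SD, n = 6), 7.75 times that of the next class. For neither pump did any library of another of the 6 classes reach the lowest endothelial-like library. An unnamed cluster outside these classes, led by Prg4, Bnc2 and Slc47a1 and described at the end, did so for both pumps. It held 15.5% of the Abcb1a and 19.0% of the Abcg2 UMIs. Endothelial-like cells held 35.5% of the Abcb1a and 30.8% of the Abcg2 UMIs. The order of the remaining classes was not stable: microglia-like exceeded the third class in 3 of 6 libraries for both pumps.

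Abcc4, which exports cyclic nucleotides and conjugated anions, was the only member of the Abcc subfamily with an endothelial-like peak. It had 159 and 112 CPM in the TRPM2 Mg KO bilirubin libraries, 163 and 289.7 CPM in WT bilirubin, and 151 and 83.9 CPM in WT vehicle. The mean of 159.7 ± 70.7 CPM (SD, n = 6) was 4.26 times that of ependymal-like cells. Endothelial-like cells held 27.1% of Abcc4 UMIs.

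Slco1c1, the thyroxine carrier, was shared between endothelial-like and astrocyte-like cells. It had 595 and 411 CPM in endothelial-like cells of the TRPM2 Mg KO bilirubin libraries, 483 and 674 CPM in WT bilirubin, and 383 and 299.8 CPM in WT vehicle. The astrocyte-like values were 559 and 326 CPM in TRPM2 Mg KO bilirubin, 296 and 332 CPM in WT bilirubin, and 292 and 263 CPM in WT vehicle. The endothelial-like level was higher in 6 of 6 libraries but by 1.38 times on the means, and the ranges of both classes overlapped. Choroid plexus-like cells came next with 146 ± 41.7 CPM (SD, n = 6). Because that class was large, it held 33.7% of all Slco1c1 UMIs, next to 29.7% of all UMIs. The thinned share of cells with a Slco1c1 UMI was 37.2% in endothelial-like, 27.0% in astrocyte-like and 13.8% in choroid plexus-like cells, against 5.91% in microglia-like cells.

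Slco2b1, an uptake carrier of steroid sulfates, was led by microglia-like cells. It had 192 and 188 CPM there in the TRPM2 Mg KO bilirubin libraries, 168 and 313 CPM in WT bilirubin, and 150.1 and 134 CPM in WT vehicle. Endothelial-like cells came second with 83.4 ± 22.9 CPM against 191 ± 63.6 CPM in microglia-like cells (SD, n = 6 each), a ratio of 2.29. Microglia-like cells held 46.5% of Slco2b1 UMIs and 11.9% of all UMIs. The thinned share of cells with a Slco2b1 UMI was 18.5% in microglia-like and 8.56% in endothelial-like cells, against 1.20% in choroid plexus-like cells.

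Slco3a1, a carrier of prostaglandins and other anions, was led by mural-like cells, the pericytes and smooth muscle cells around vessels. It had 86.5 and 50.6 CPM there in the TRPM2 Mg KO bilirubin libraries, 89.2 and 127 CPM in WT bilirubin, and 101 and 53.2 CPM in WT vehicle. The mean of 84.6 ± 29.1 CPM (SD, n = 6) was 3.79 times that of ependymal-like cells. The mural-like class was small, with 33 cells in TRPM2 Mg KO bilirubin library 2 and in WT bilirubin library 2.

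Abcc5, Abcc1 and Slco1a5 were low or broad. Abcc5, a pump of cyclic nucleotides and anions, averaged 81.0 ± 25.7 CPM in astrocyte-like and 73.4 ± 20.2 CPM in ependymal-like cells (SD, n = 6 each), and their ranges overlapped. Abcc1, which exports glutathione conjugates, averaged 22.7 ± 8.75 CPM in ependymal-like and 16.8 ± 3.51 CPM in microglia-like cells (SD, n = 6 each), again with overlapping ranges. Slco1a5, a carrier of thyroid hormones and bile salts in rodents, averaged 5.75 ± 1.98 CPM in choroid plexus-like and 4.98 ± 3.28 CPM in ependymal-like cells (SD, n = 6 each). Choroid plexus-like cells held 62.9% of the 623 Slco1a5 UMIs. In endothelial-like cells Slco1a5 did not exceed 3.15 CPM in any library.

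The likeness of patterns was measured as Pearson's r of log2(CPM + 1) over the means of 12 named classes, which share libraries and free RNA, among 11178 genes. The patterns most like that of Slco1a4 were those of Egfl7 (r = 0.986), Cldn5 (0.978) and Ramp2 (0.977). Cldn5 codes for the tight-junction protein of brain endothelium, and both it and Egfl7 were among the markers that named the class. Ly6a was most like Abcb1a (0.981), Kdr, a receptor for vascular endothelial growth factor, most like Abcg2 (0.981), and Prom1 most like Abcc4 (0.971). Aqp11 was most like Slco1c1 (0.933), Ecscr most like Slco2b1 (0.953) and Cpm most like Slco3a1 (0.848). Srsf10 was most like Abcc1 (0.922), Nf1 most like Abcc5 (0.960) and Sh3bgrl2 most like Slco1a5 (0.941). Among the members themselves, Abcg2 and Slco1a4 were the most alike pair (0.93) and Slco1c1 and Slco3a1 the least (-0.11).

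The first comparison, bilirubin against vehicle in WT libraries, asks whether the transporters change under bilirubin. In endothelial-like cells, 7 of the 9 transporters that passed the low-count filter had a higher fitted level in WT bilirubin than in WT vehicle, by log2 fold changes of 0.48 to 0.81, a direction that 6 of them lost with endothelial marker UMIs as library size (Abcc1 was not fitted there). Abcc5 and Slco3a1 had a lower level with either scaling. With trimmed-mean (TMM) library sizes, used wherever no other scaling is named, no change was called, whereas with endothelial marker UMIs Abcc5 and Slco3a1 were called lower. Slco1a5 did not pass the filter in endothelial-like cells.

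Over the 6 classes, 51 tests of a transporter were made in this comparison, and edgeR's quasi-likelihood test with Benjamini-Hochberg adjustment over all genes of a class called 0 of them. An unadjusted p under 0.05 was found for 3, and DESeq2 called 0. Over all genes such a p was found for 1580 of 10138 in endothelial-like, 2166 of 14957 in choroid plexus-like and 784 of 9547 in ependymal-like cells. The counts were 246 of 3363 in mural-like, 887 of 10645 in astrocyte-like and 2372 of 14466 in microglia-like cells. Without WT bilirubin library 1, Abcb1a was called lower in ependymal-like (-4.75) and astrocyte-like cells (-4.03), where the remaining WT bilirubin library held 1 Abcb1a UMI in either class. Without WT vehicle library 2 it was called lower in choroid plexus-like cells (-1.56). The share of all tested genes called was 2.24% in endothelial-like, 4.5% in choroid plexus-like, 0.283% in ependymal-like, 0.327% in mural-like, 0.0752% in astrocyte-like and 2.68% in microglia-like cells.

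Abcc4 had the largest positive endothelial-like difference, a log2 fold change of 0.81 (SE 0.38, 95% interval 0.02 to 1.60, adjusted p = 0.305 by edgeR). Slco1a4 followed with 0.71 (SE 0.45, interval -0.22 to 1.65), and Abcc1 with 0.70 (SE 0.58). Abcc1 was the least abundant of the genes fitted there, with 10.9 and 14.3 CPM in WT bilirubin and 7.20 and 6.29 CPM in WT vehicle. Slco1c1 stood at 0.65, Abcb1a at 0.62, Slco2b1 at 0.51 and Abcg2 at 0.48, all with intervals that included 0. Abcc5 stood at -0.68 (SE 0.37, interval -1.45 to 0.08), with 24.1 and 28.7 CPM in WT bilirubin and 37.5 and 38.8 CPM in WT vehicle. Slco3a1 stood at -1.04 (SE 0.55, interval -2.20 to 0.11). In 6 of the 9 genes both WT bilirubin libraries lay above both WT vehicle libraries, where 26.9% of all genes did, and in 1, Abcc5, both lay below, where 17.7% did. The median over the 9 fitted members was 0.62, and over all 10138 genes tested 0.03.

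The direction of these endothelial-like differences depended on the scaling. The summed level of the 12 endothelial markers in the class was 11595 and 11729 CPM in WT bilirubin and 5133 and 5482 CPM in WT vehicle. The summed level of 10 neuronal transcripts, taken to mark free RNA in this class, was 1471 and 1379.7 CPM in WT bilirubin and 18707 and 4477 CPM in WT vehicle. Bc1 made up most of each sum, with 853 and 1018 CPM in WT bilirubin and 16428 and 3372 CPM in WT vehicle. With the marker UMIs as library size, the median of all genes moved to -1.03, and the log2 fold changes became -0.33 for Slco1a4, -0.42 for Abcb1a, -0.55 for Abcg2, -0.23 for Abcc4, -0.39 for Slco1c1 and -0.51 for Slco2b1. All 6 lay above that median and none was called. With that scaling Abcc5 stood at -1.71 (edgeR adjusted p = 0.00325) and Slco3a1 at -2.07 (edgeR adjusted p = 0.0116), below the median, and both were called. The share of all genes called with that scaling is not given here, so these 2 calls are not read as particular to the transporters. The part that free RNA and the share of endothelial transcripts per cell play in these values was not tested.

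**Figure D2:**
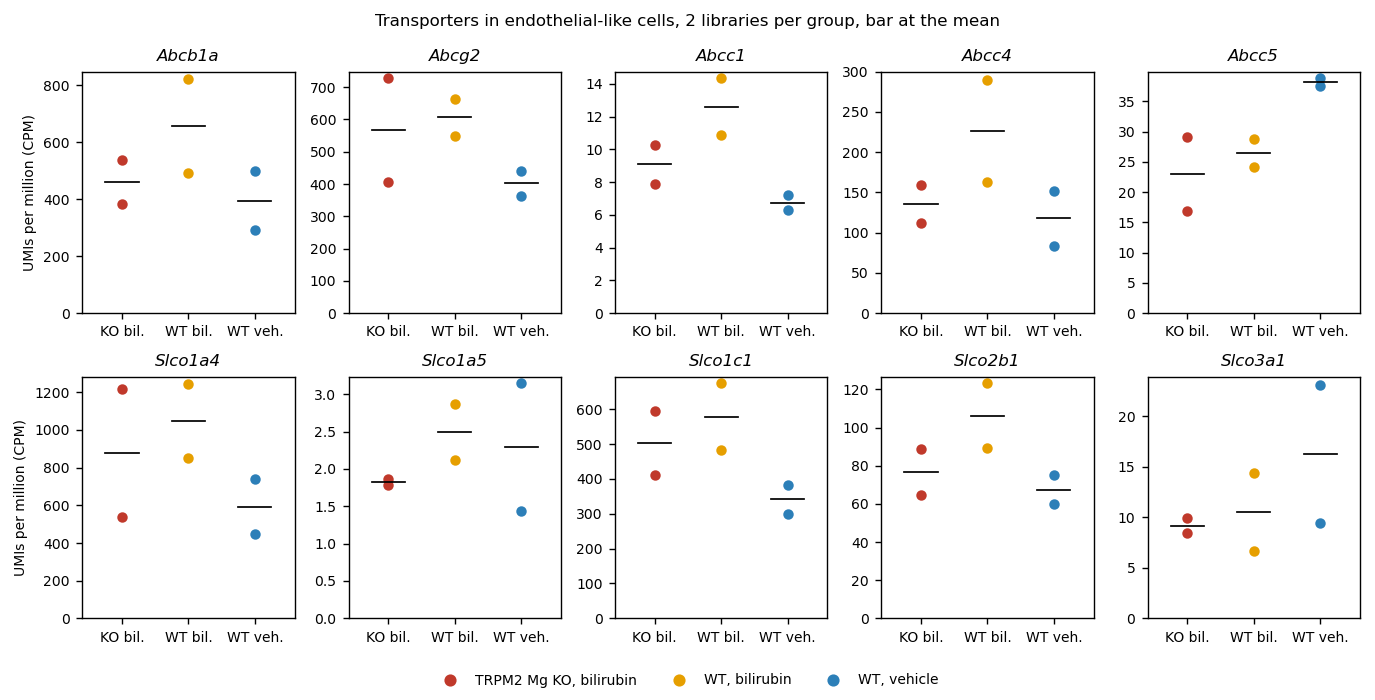
Level of each transporter in endothelial-like cells (CPM, linear axes from 0), 2 libraries per group with a bar at the mean. Slco1a4 had 1219.8 and 536 CPM in TRPM2 Mg KO bilirubin, 853 and 1242 CPM in WT bilirubin, and 741 and 447 CPM in WT vehicle. Scaled to endothelial marker UMIs, the WT bilirubin over WT vehicle difference of Slco1a4, Abcb1a, Abcg2, Abcc4, Slco1c1 and Slco2b1 takes the opposite sign.

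In the remaining classes the WT bilirubin libraries showed no called transporter either. Microglia-like Slco3a1 came closest to the threshold, with 4.57 and 4.70 CPM in WT bilirubin and 11.6 and 9.97 CPM in WT vehicle, a log2 fold change of -1.33 (SE 0.40, interval -2.19 to -0.46, edgeR adjusted p = 0.0995). Both WT bilirubin libraries lay below both vehicle libraries. Astrocyte-like Slco2b1 had 16.2 and 17.0 CPM in WT bilirubin and 34.2 and 28.4 CPM in WT vehicle, a log2 fold change of -1.03 (SE 0.42, edgeR adjusted p = 0.469). In choroid plexus-like cells the 10 transporters, all of which passed the filter, ranged from -0.82 for Abcb1a to 0.57 for Slco1c1, with a median of -0.14 beside -0.01 over all 14957 genes. Slco1c1 there had 138 and 191 CPM in WT bilirubin and 111 and 114 CPM in WT vehicle, and its fold change was -0.13 with choroid plexus marker UMIs as library size. It was the 1 transporter of the 10 whose WT bilirubin libraries both lay above the vehicle libraries there, where 19.3% of all genes did, and Abcc5 the 1 below, where 23.3% did. In microglia-like cells both WT bilirubin libraries lay above both vehicle libraries for 3 of 9 (Abcc1, Slco1c1 and Slco2b1), where 30% of all genes did, though the fitted change of Abcc1 was negative with microglia marker UMIs as library size. They lay below for Slco3a1, where 18.5% of all genes did.

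The second comparison, TRPM2 Mg KO bilirubin against WT bilirubin, asks whether the knockout changes the transporters under bilirubin. In endothelial-like cells 8 of the 9 fitted transporters had a lower fitted level in the knockout, by log2 fold changes between -0.02 and -0.61, of which Abcg2 (0.17), Abcc5 (0.14) and Slco1c1 (0.09) were positive with endothelial marker UMIs as library size. Slco3a1 stood at 0.27, and at 0.41 with that scaling. No change passed the test. The class left out an unnamed high-UMI cluster with all 12 endothelial markers, most of whose cells were in TRPM2 Mg KO bilirubin library 2. With that cluster added, 3 of 27 endothelial-like fold changes over the 3 comparisons changed sign. In microglia-like cells, in contrast, Slco1a4, Abcb1a, Abcg2 and Slco1c1 lay higher in both knockout libraries than in both WT bilirubin libraries, and these too missed the test. The direction of these 4 was the same with microglia marker UMIs as library size.

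Over the 6 classes edgeR's quasi-likelihood test with Benjamini-Hochberg adjustment called 0 of 51 transporter tests, an unadjusted p under 0.05 was found for 7, and DESeq2 called 0. Over all genes such a p was found for 222 of 10138 in endothelial-like, 371 of 14957 in choroid plexus-like and 273 of 9547 in ependymal-like cells. The counts were 76 of 3363 in mural-like, 363 of 10645 in astrocyte-like and 409 of 14466 in microglia-like cells. Without WT bilirubin library 1, Abcb1a in ependymal-like (5.29) and Slco1a4 in astrocyte-like cells (2.44) were called higher. These values rest on WT bilirubin library 2 alone, which held 1 Abcb1a UMI in ependymal-like cells. The Abcb1a level of WT bilirubin library 1 there lay between those of the knockout libraries. The share of all tested genes called was 0.0395% in endothelial-like, 0.0468% in choroid plexus-like, 0.0105% in ependymal-like, 0% in mural-like and astrocyte-like, and 0.00691% in microglia-like cells. In endothelial-like cells the lowest was Abcc4 at -0.61 (SE 0.37, interval -1.38 to 0.16). Both knockout libraries lay below both WT bilirubin libraries for 3 of the 9 genes, Abcc1, Abcc4 and Slco2b1, where 16.5% of all genes did, and above them for 0, where 10.9% did. The intervals of Abcg2 (-0.84 to 0.80) and Abcc5 (-0.76 to 0.71) were about centred on 0 and wide. The median of the 9 was -0.18, and of all genes 0.03.

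In microglia-like cells Slco1a4 had 144 and 89.7 CPM in the TRPM2 Mg KO bilirubin libraries and 61.9 and 42.3 CPM in the WT bilirubin libraries. Its log2 fold change was 1.11 (SE 0.36, interval 0.34 to 1.88, edgeR adjusted p = 1.00). Abcb1a had 69.8 and 57.5 CPM in the TRPM2 Mg KO bilirubin libraries and 31.5 and 26.3 CPM in the WT bilirubin libraries, a log2 fold change of 1.09 (SE 0.39, interval 0.26 to 1.93, edgeR adjusted p = 1.00). Abcg2 and Slco1c1 both stood at 0.71. In 4 of the 9 fitted members both knockout libraries were the higher, where 15.8% of all genes were so, and in 0 both were the lower, where 9.59% were. These 4 transporters were below their whole-library level in microglia-like cells of every library. In choroid plexus-like cells both knockout libraries were the higher for 2 of 10, Abcg2 and Slco1a4, where 14.9% of all genes were, and the lower for 0, where 12% were.

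Transcripts of endothelial cells moved in the same way in the microglia-like class. The 12 endothelial markers summed to 1315 and 1047 CPM in microglia-like cells of the TRPM2 Mg KO bilirubin libraries, 746 and 355 CPM in WT bilirubin, and 396 and 228 CPM in WT vehicle. In whole libraries they summed to 2200.4 and 2435 CPM in TRPM2 Mg KO bilirubin, 1543 and 346 CPM in WT bilirubin, and 685 and 459 CPM in WT vehicle. Whole-library Slco1a4 was 238 and 150.3 CPM in TRPM2 Mg KO bilirubin, 118 and 51.4 CPM in WT bilirubin, and 90.3 and 48.8 CPM in WT vehicle. One unnamed cluster that carried all 12 endothelial markers held 868 of its 902 cells in TRPM2 Mg KO bilirubin library 2. Added to the endothelial-like class, it raised that library's class UMIs from 1070887 to 16302840, of 23726361 in the library. The whole-library values of that library, here and elsewhere, thus rest in large part on this cluster. All 12 markers had UMIs in microglia-like cells. Their part in the microglia-like transporter values was not tested.

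Astrocyte-like and ependymal-like cells held transporters with fitted levels on either side of 0, and none was called. In astrocyte-like cells 3 of the 9 fitted transporters were lower in the knockout, Abcc1 (-0.72), Abcc5 (-0.60) and Abcc4 (-0.41), and the median of the 9 was 0.35, beside 0.02 over all genes. In ependymal-like cells 4 of 9 were lower, Slco3a1 (-0.58), Abcc1 (-0.50), Abcc4 (-0.26) and Abcc5 (-0.08), and the median was 0.40, beside 0.03 over all genes. The intervals of these 7 values included 0. Slco1a4 was among those with a higher fitted level in both classes. Astrocyte-like Slco1a4 had 97.7 and 78.5 CPM in the TRPM2 Mg KO bilirubin libraries and 50.7 and 17.0 CPM in the WT bilirubin libraries, a log2 fold change of 1.34 (SE 0.44, interval 0.44 to 2.24). Ependymal-like Slco1a4 stood at 0.92 (SE 0.38, interval 0.14 to 1.71). Ependymal-like Abcb1a stood at 1.45 (SE 0.63), with 32.7 and 65.0 CPM in the TRPM2 Mg KO bilirubin libraries and 33.7 and 1.32 CPM in the WT bilirubin libraries, and the lowest of these rested on 1 UMI. The endothelial markers summed to 779.5 and 834 CPM in astrocyte-like cells of the TRPM2 Mg KO bilirubin libraries and 620.0 and 100.1 CPM in WT bilirubin, and to 481 and 1451 CPM in ependymal-like cells of the TRPM2 Mg KO bilirubin libraries and 549.8 and 103 CPM in WT bilirubin. Their part in these values was not tested.

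**Figure D3:**
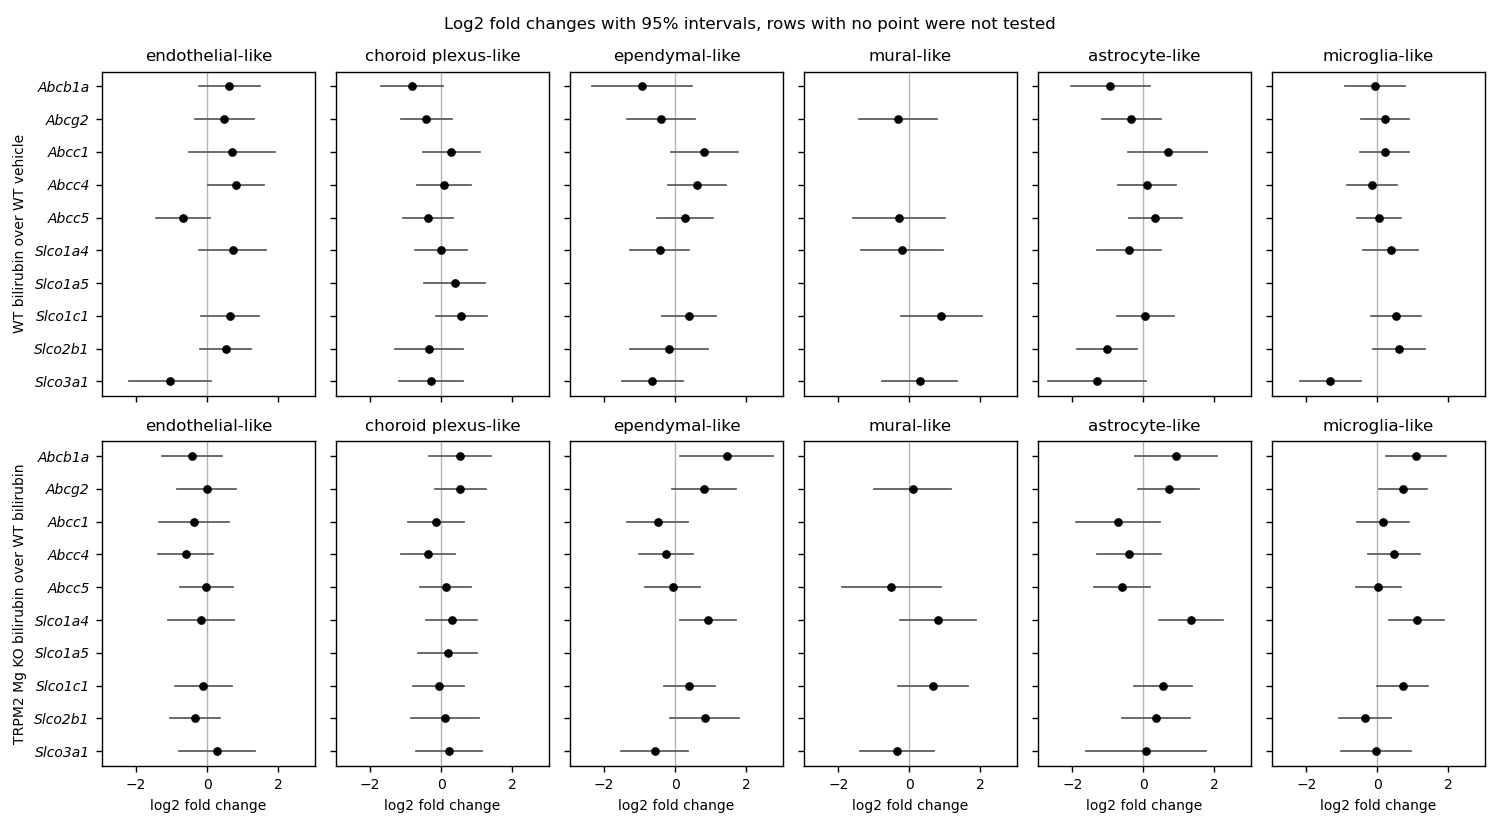
Log2 fold changes (x axis) of the transporters (rows) in 6 classes, WT bilirubin over WT vehicle above and TRPM2 Mg KO bilirubin over WT bilirubin below. Points are edgeR estimates, lines are 95% intervals, and rows without a point did not pass the low-count filter. None of the changes was called after adjustment, and with endothelial marker UMIs as library size the 6 positive endothelial-like points of Slco1a4, Abcb1a, Abcg2, Abcc4, Slco1c1 and Slco2b1 in the upper row turn negative and those of Abcg2, Abcc5 and Slco1c1 in the lower row positive.

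The third comparison, TRPM2 Mg KO bilirubin against WT vehicle, shares its libraries with the first 2. In endothelial-like cells the fitted changes ran from -0.77 for Slco3a1 to 0.53 for Slco1c1 and Slco1a4, and with endothelial marker UMIs as library size those of Slco1c1 and Slco1a4 were -0.30 and -0.35. With that scaling the positive values of Abcb1a, Abcg2, Abcc4 and Slco2b1 also turned negative, and Abcc5 (-1.57, edgeR adjusted p = 0.00734) and Slco3a1 (-1.65, edgeR adjusted p = 0.0353) were called. The median of all genes was then -0.81, and the share of all genes called with that scaling is not given here. Both knockout libraries were above both vehicle libraries for 2 of the 9 genes, Abcc1 and Slco1c1, where 22.3% of all genes were, and below them for 1, Abcc5, where 18.2% were. In microglia-like cells the largest changes were 1.49 for Slco1a4 (SE 0.36, edgeR adjusted p = 0.208), 1.23 for Slco1c1 (SE 0.33, edgeR adjusted p = 0.224) and -1.37 for Slco3a1 (SE 0.42, edgeR adjusted p = 0.257). Both knockout libraries were above both vehicle libraries there for 6 of the 9 fitted members, where 34.5% of all genes were, and below for Slco3a1, where 15.5% were. In choroid plexus-like cells this held for 1 of 10 above, Slco1c1 (18.9% of all genes), and 0 below (21.5%). Mural-like Slco1c1 had 126 and 152 CPM in TRPM2 Mg KO bilirubin and 53.7 and 37.2 CPM in WT vehicle, a log2 fold change of 1.56 (SE 0.54, edgeR adjusted p = 0.290).

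Over the 6 classes edgeR's test called 0 of 51, an unadjusted p under 0.05 was found for 9, and DESeq2 called 0. Over all genes such a p was found for 1285 of 10138 in endothelial-like, 1479 of 14957 in choroid plexus-like and 772 of 9547 in ependymal-like cells. The counts were 258 of 3363 in mural-like, 573 of 10645 in astrocyte-like and 1553 of 14466 in microglia-like cells. Without WT bilirubin library 1, Slco1a4 (1.47) and Slco1c1 (1.21) were called higher in microglia-like cells, and likewise without WT bilirubin library 2, with the same values to 2 decimals. The share of all tested genes called was 0% in endothelial-like and microglia-like, 0.0669% in choroid plexus-like, 0.0838% in ependymal-like, 0.178% in mural-like and 0.00939% in astrocyte-like cells.

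Whether a transporter responded differently in endothelial-like cells and in another class of the same libraries was tested with an interaction term, 135 tests in all. The test called 3, and 31 had an unadjusted p under 0.05, for which no share over all genes is given here. For Abcb1a under bilirubin, TRPM2 Mg KO against WT, the log2 fold change was -0.42 in endothelial-like and 1.09 in microglia-like cells, a difference of -1.39 (SE 0.26, interval -1.91 to -0.86, edgeR adjusted p = 0.00970). For Slco1a4 in the same comparison it was -0.18 in endothelial-like and 1.11 in microglia-like cells, a difference of -1.25 (SE 0.25, interval -1.75 to -0.76, edgeR adjusted p = 0.0175). In this contrast 0.14% of all genes were called. Beside this, endothelial markers were also higher in the microglia-like cells of the knockout libraries, and the part of such RNA in the difference was not tested. The sign was the same under all 15 alternatives. The Abcb1a call was lost without TRPM2 Mg KO bilirubin library 1 (edgeR adjusted p = 0.123) or library 2 (edgeR adjusted p = 0.0894). The Slco1a4 call was lost without TRPM2 Mg KO bilirubin library 1 (edgeR adjusted p = 0.0594) or library 2 (edgeR adjusted p = 0.404), or without WT bilirubin library 2 (-0.82, edgeR adjusted p = 0.147). The unnamed cluster of high UMI counts that carried all 12 endothelial markers held 868 of its 902 cells in TRPM2 Mg KO bilirubin library 2. With it added to the endothelial-like class both calls were lost (edgeR adjusted p = 0.188 for Abcb1a and 0.199 for Slco1a4). Both were also lost with marker UMIs as library size (-1.36 and -1.23, edgeR adjusted p = 0.126 and 0.219).

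The third call concerned WT bilirubin against WT vehicle. Slco2b1 stood at 0.51 in endothelial-like and -1.03 in astrocyte-like cells, a difference of 1.56 (SE 0.42, interval 0.72 to 2.39, edgeR adjusted p = 0.0352), where 1.2% of all genes were called. Endothelial-like Slco2b1 had 89.1 and 123 CPM in WT bilirubin and 74.9 and 59.8 CPM in WT vehicle. The astrocyte-like levels of 16.2 to 34.2 CPM were below the whole-library level in every library. With marker UMIs as library size the difference was 0.75 and the call was lost (edgeR adjusted p = 0.429). It was also lost without any 1 of the 6 libraries (1.41 to 1.68, edgeR adjusted p = 0.0550 to 0.524).

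Leaving out 1 library gave 1 to 4 such calls over the transporters and classes, except 19 without WT bilirubin library 1. The share of all genes called in those fits is not given here, so these counts are not read as particular to the transporters. The shares that follow are of the fits of all 6 libraries. In WT bilirubin against WT vehicle, 0.0221% of all genes were called for a difference from choroid plexus-like, 0% from ependymal-like, 0.0139% from mural-like and 1.11% from microglia-like cells. In TRPM2 Mg KO bilirubin against WT bilirubin, 0% were called for the first 3 of these classes and 0.052% for astrocyte-like cells. In TRPM2 Mg KO bilirubin against WT vehicle, 0% were again called for the first 3, 0.052% for astrocyte-like and 0.483% for microglia-like cells.

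**Figure D4:**
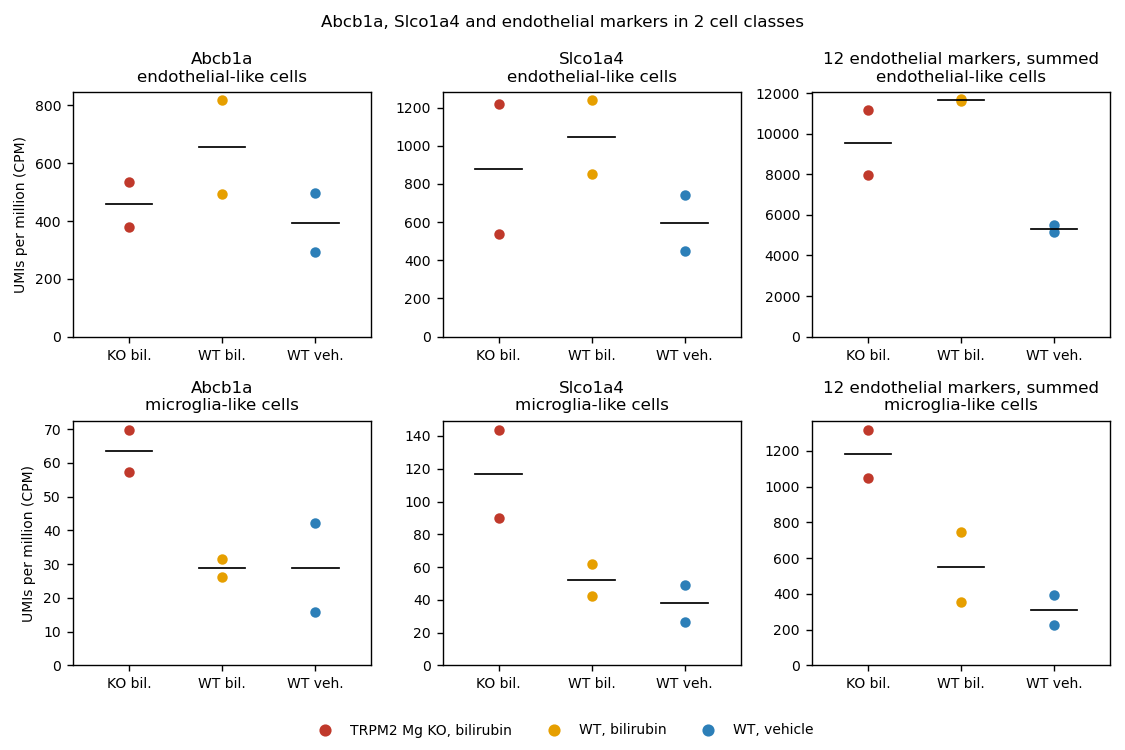
Abcb1a, Slco1a4 and the summed 12 endothelial markers (CPM, linear axes from 0) in endothelial-like cells (top) and microglia-like cells (bottom), 2 libraries per group with a bar at the mean. In microglia-like cells both transporters and the markers were highest in the TRPM2 Mg KO bilirubin libraries, with Slco1a4 at 144 and 89.7 CPM and the markers at 1315 and 1047 CPM.

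Other transport genes of the same barrier were described through lists. Of 17 solute carriers of the blood-brain barrier, all tested in endothelial-like cells, 2 rose in WT bilirubin against WT vehicle by edgeR and none fell. Over all 10138 genes tested there, 31 were called higher and 196 lower. The list had a median of 0.67 beside 0.03 over all genes, and of -0.36 beside -1.03 with endothelial marker UMIs as library size. Slc38a5, an amino acid carrier, had 151 and 164 CPM in WT bilirubin and 41.8 and 41.9 CPM in WT vehicle, a log2 fold change of 1.79 (SE 0.34, edgeR adjusted p = 0.0207). Slc16a1, the monocarboxylate carrier, had 182 and 267 CPM in WT bilirubin and 74.9 and 58.7 CPM in WT vehicle, a log2 fold change of 1.62 (SE 0.36, edgeR adjusted p = 0.0302). With endothelial marker UMIs as library size both stayed positive (0.77 and 0.59) and both calls were lost (edgeR adjusted p = 0.0876 and 0.198). Both were lost as well in a fit of only the 4 libraries compared (edgeR adjusted p = 0.0999 and 0.102). The same held with the unnamed high-UMI cluster added to the class (edgeR adjusted p = 0.219 and 0.243). Without TRPM2 Mg KO bilirubin library 1 or 2 or WT bilirubin library 1 the Slc38a5 call was lost (1.70 to 1.80, edgeR adjusted p = 0.0636 to 0.0818). The Slc16a1 call was lost without any 1 of the bilirubin libraries (1.43 to 1.75, edgeR adjusted p = 0.0671 to 0.100). In TRPM2 Mg KO bilirubin against WT bilirubin edgeR and DESeq2 called 0 of the 17. An unadjusted p under 0.05 was found for 3 of the 17 and for 222 of all 10138 genes. Slc38a5 (89.2 and 62.6 CPM in the knockout) and Slc2a1 (297 and 255 CPM in the knockout against 441 and 679.8 CPM in WT) had log2 fold changes of -0.96 and -0.92.

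Of 24 other ABC and organic anion transporters, 9 passed the filter in endothelial-like cells. EdgeR and DESeq2 called 0 of them in each comparison, and an unadjusted p under 0.05 was found for 2 in WT bilirubin against WT vehicle, 0 in TRPM2 Mg KO bilirubin against WT bilirubin and 1 in TRPM2 Mg KO bilirubin against WT vehicle. Over all 10138 genes the counts were 1580, 222 and 1285 in the same order. Abcc9, a subunit of a potassium channel complex of mural cells, had 21.2 and 45.9 CPM in WT bilirubin and 13 and 4.19 CPM in WT vehicle (log2 fold change 1.69, edgeR adjusted p = 0.127). Slc22a8, the organic anion transporter 3, had 120.1 and 149 CPM in WT bilirubin and 76.4 and 65.0 CPM in WT vehicle (log2 fold change 0.80, edgeR adjusted p = 0.227). Of 14 xenobiotic receptors and their targets, 5 were tested in endothelial-like cells, where edgeR and DESeq2 called 0 in each comparison and 0 had an unadjusted p under 0.05. Nfe2l2, a regulator of antioxidant genes, had 96.5 and 106 CPM in TRPM2 Mg KO bilirubin, 88.0 and 112 CPM in WT bilirubin, and 66.3 and 80.7 CPM in WT vehicle.

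Genes that mark kinds of endothelial cell were measured beside the transporters, with lists that hold genes chosen with earlier results of these data known. Of 9 tested venous genes, 5 rose by edgeR in endothelial-like cells of WT bilirubin against WT vehicle, where 31 of all 10138 genes were called higher. The list median was 1.48 beside 0.03 over all genes, and 0.49 beside -1.03 with endothelial marker UMIs as library size. Lcn2, which codes for an iron-scavenging acute-phase protein, had 192 and 175 CPM in WT bilirubin and 11.5 and 10.5 CPM in WT vehicle, a log2 fold change of 3.96 (edgeR adjusted p = 3.67e-05). Lrg1, another acute-phase gene, had 71.9 and 60.2 CPM in WT bilirubin and 4.32 and 2.10 CPM in WT vehicle, a log2 fold change of 4.35 (edgeR adjusted p = 0.00227). Both were called with endothelial marker UMIs as library size too, whereas the calls of Tmem252 (1.86) and of the chemokine-binding receptor Ackr1 (2.35) were lost. The last 2 also lost their call without TRPM2 Mg KO bilirubin library 1 or 2 and without 1 WT bilirubin library, library 2 for Tmem252 (1.76) and library 1 for Ackr1 (1.81). Both lost it in a fit of only the 4 libraries compared (edgeR adjusted p = 0.0999 for Tmem252 and 0.102 for Ackr1). With the unnamed high-UMI cluster added to the class, the calls of Tmem252, Ackr1 and Lrg1 were lost (edgeR adjusted p = 0.219, 0.230 and 0.138). In TRPM2 Mg KO bilirubin against WT bilirubin 2 of the 9 fell by edgeR, Lrg1 by 4.18 and Lcn2 by 2.45 on the log2 scale, where 4 of all 10138 genes were called lower. The list median was -1.15 beside 0.03 over all genes. Without TRPM2 Mg KO bilirubin library 1 neither was called (-2.83 for Lrg1 and -2.06 for Lcn2), and Lcn2 was not called without library 2 (-2.75). Neither was called with the unnamed high-UMI cluster added to the endothelial-like class (-2.60 for Lrg1 and -1.59 for Lcn2).

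Lcn2 also rose in WT bilirubin against WT vehicle in choroid plexus-like (3.29, edgeR adjusted p = 0.00523) and microglia-like cells (3.76, edgeR adjusted p = 0.0208), and both calls were lost with marker UMIs as library size (edgeR adjusted p = 0.0506 and 0.0666). Lcn2 is a granule gene of neutrophils as well, and the 8 neutrophil markers summed to 57.7 and 59.8 CPM in endothelial-like cells of TRPM2 Mg KO bilirubin, 171 and 232 CPM in WT bilirubin, and 61.9 and 64.0 CPM in WT vehicle. None of the 8 was at 0 in every library, and their part in the venous values was not tested. EdgeR and DESeq2 called 0 of 6 tested arterial and 0 of 7 tested capillary genes in endothelial-like cells in each comparison. In WT bilirubin against WT vehicle an unadjusted p under 0.05 was found for 1 arterial and 0 capillary genes, and for 1580 of all 10138 genes. For TRPM2 Mg KO bilirubin against WT bilirubin the counts were 1, 0 and 222. Against WT vehicle, TRPM2 Mg KO bilirubin gave 0, 2 and 1285. Of the 9 neuronal transcripts taken to mark free RNA and tested in endothelial-like cells, 6 fell by edgeR in WT bilirubin against WT vehicle. Of all 10138 genes, 196 were called lower there. The list median was -1.82 beside 0.03 over all genes, and -2.91 beside -1.03 with endothelial marker UMIs as library size. Of the 6, Syt1 (-2.16), Nrgn (-2.19), Bc1 (-3.48) and Grin2b (-1.98) each lost the call without at least 1 TRPM2 Mg KO or WT bilirubin library and kept their sign.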

How the data were processed

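There were 6 libraries of 10x Genomics 3′ single-cell RNA sequencing, used as the authors' deposited matrices of whole-number UMI counts per gene and barcode. The matrix headers name Cell Ranger 9.0.1, whereas the submitters' processing notes name Cell Ranger 8.0.0, Scanpy 1.9.6, GRCm39 and mm10, with no word on which made the tables, so the build behind the deposited counts is not settled here. The sources used here do not state a removal of doublets or free RNA before deposit.

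Barcodes under 500 UMIs, under 300 genes or over 15% mitochondrial UMIs were dropped. Scrublet scores at an expected rate of 0.8% doublets per 1000 barcodes removed 14379 cells, a share fixed by that rate rather than by the automatic threshold. Cells were clustered with scanpy 1.11.5 and leidenalg 0.10.2 (Python 3.11.15) on 3000 variable genes less the transporters, with 40 principal components, 15 neighbours and resolution 1. Clusters were named by 7 to 12 markers per class, with 12 for each of the 6 classes used here. A named cluster also needed a summed marker level of at least 50% of that in the highest cluster. The rebuilt names may differ from the study's own. Raw counts were summed per library and class, with at least 20 cells each.

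Tests used edgeR 4.0.16 (quasi-likelihood, TMM, default low-count filter) on all 6 libraries of a class in R 4.3.3, after tests on simulated data. P-values were adjusted over all genes of a class, called at 0.05. The interaction fits kept the library as a block. DESeq2 1.42.0 was an alternative. Intervals cover 95%. The groups had 2 libraries each with shared numbers, and no label ties equal numbers to an animal, litter or day.

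The transporters and gene lists were chosen with earlier results of these data known. All 10 transporters are named, the called genes of a list up to 4 by p, otherwise 2 by p, and for likeness the 3 genes of highest r with at least 20 CPM in a class, all 3 printed for Slco1a4 and the first for the others. Promoter sequences are from RefSeq (GRCm38.p6), and no position of the counts was taken from it.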

Additional observations from a re-analysis of the deposited data

Results flagged for a closer look

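For 3 transporters the response to a condition differed between endothelial-like cells and another class of the same libraries by a test of the difference itself. Abcb1a, the drug efflux pump, differed by -1.39 on the log2 scale (SE 0.26, edgeR adjusted p = 0.00970) between endothelial-like and microglia-like cells in TRPM2 Mg KO bilirubin against WT bilirubin. Slco1a4, the bile salt and steroid conjugate carrier, differed by -1.25 (SE 0.25, edgeR adjusted p = 0.0175) in the same contrast. In this contrast the 12 endothelial markers were also higher in microglia-like cells, with 1315 and 1047 CPM in TRPM2 Mg KO bilirubin and 746 and 355 CPM in WT bilirubin, and their part in both differences was not tested. Slco2b1, the steroid sulfate carrier, differed by 1.56 (SE 0.42, edgeR adjusted p = 0.0352) between endothelial-like and astrocyte-like cells in WT bilirubin against WT vehicle. Of all genes, 0.14% were called in the first contrast and 1.2% in the second. Each of the 3 calls was lost when single libraries were left out: Abcb1a without either knockout library (edgeR adjusted p = 0.123 and 0.0894), Slco1a4 without either knockout library or WT bilirubin library 2 (edgeR adjusted p = 0.0594 to 0.404), and Slco2b1 without any 1 of the 6 (edgeR adjusted p = 0.0550 to 0.524). With marker UMIs as library size none of the 3 was called (edgeR adjusted p = 0.126, 0.219 and 0.429). The low Slco1a4 share in microglia-like cells is not read as expression of the carrier by those cells. None of the 3 changed sign under an alternative, and DESeq2 gave adjusted p-values of 0.0245 for Abcb1a and 0.0357 for Slco1a4, while it left Slco2b1 out of its adjustment. With the per-cell marker gate none of the 3 was called (edgeR adjusted p = 0.649, 0.535 and 0.0521).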

How the results depend on the processing

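In WT bilirubin against WT vehicle the count of transporter calls was 3 with class marker UMIs as library size (Abcc5 and Slco3a1 in endothelial-like, Abcb1a in choroid plexus-like cells). The share of all genes called with marker UMIs is not given here. The count of transporter calls was 2 with the mitochondrial share as a term, an alternative chosen after seeing the data (Abcb1a in ependymal-like and astrocyte-like cells). It was 0 to 2 with 1 library left out. In TRPM2 Mg KO bilirubin against WT bilirubin it was 0 to 2 with 1 library left out. In TRPM2 Mg KO bilirubin against WT vehicle it was 2 with marker UMIs, 2 with no low-count filter, 2 in a fit of only the 4 libraries compared (both times Slco1a4 and Slco1c1 in microglia-like cells), and 0 to 2 with 1 library left out. The 3 calls of a difference between classes became 7 with marker UMIs, 5 with only the 4 libraries compared, 1 with doublets kept, 0 with the high-UMI cluster added to the endothelial-like class, and 1 to 19 with 1 library left out. These counts are of all such calls and not of the same 3, and the share of all genes called under these alternatives is not given here. Slco1a4 lost its call with only the 4 libraries compared (edgeR adjusted p = 0.0770) and with doublets kept (edgeR adjusted p = 0.0516). Slco2b1 lost it with doublets kept (edgeR adjusted p = 0.155) and with no low-count filter (edgeR adjusted p = 0.0909). The alternatives for the differences were added after seeing the data. Where a group was left with 1 library, that library was assumed to vary like the other groups. The 14 pairs above the whole-library level were 12 to 16 under every alternative run. The share of endothelial-like cells with a Slco1a4 UMI was 53.7% after thinning and 71.1% without. No called difference between classes and no called list gene changed its direction under the alternatives run.

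Of 144 transporter fold changes that could be fitted with marker UMIs, 36 changed sign, against 2 of 153 with median-of-ratios size factors. The cause was not tested beyond the marker sums given with the endothelial-like values. Signs also changed for 20 of 114 with the per-cell marker gate, 18 of 153 with the mitochondrial share as a term and 7 of 153 with doublets kept. With 1 library left out, 8 of 153 (without WT bilirubin library 1) to 23 of 153 (without WT bilirubin library 2) changed sign. The replicate block gave 0 calls in each of the 3 comparisons. Deviations of same-numbered libraries from their group means correlated at -0.341 to 0.182 across genes, so the numbers were not taken to pair the libraries. Depth limited Slco1a5, with 623 UMIs in all, and the mural-like class, where 5 of 10 transporters passed the low-count filter.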

Other observations

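One unnamed cluster, chosen after its values were seen, carried the efflux pumps outside the 6 classes. It was led by Prg4, Bnc2 and Slc47a1 and held 2357 cells, at least 301 per library. Abcg2 had 729 and 326 CPM there in TRPM2 Mg KO bilirubin, 438 and 517 CPM in WT bilirubin, and 371 and 404 CPM in WT vehicle. Abcb1a had 315 and 245 CPM in TRPM2 Mg KO bilirubin, 232 and 363 CPM in WT bilirubin, and 353 and 252 CPM in WT vehicle. The groups overlapped for both. Abcc4 averaged 91.9 ± 26.5 CPM and Slco3a1 76.3 ± 26.3 CPM (SD, n = 6 each), and these 4 transporters exceeded their whole-library level in 6 of 6 libraries. Slco1a4, at 15.6 to 98.3 CPM over the libraries, was below its whole-library level in all 6. Slc47a1 itself is a transporter, an exporter of organic cations, and the cluster has no name from the fixed markers.

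Abcc5 and Slco3a1 stood high in 2 further unnamed clusters. In the cluster led by Dpp10, Tafa1 and Ptprd, Abcc5 averaged 119 ± 42.1 CPM (SD, n = 6). In that led by Nxph1, Erbb4 and Adarb2, Abcc5 averaged 116 ± 25.2 CPM and Slco3a1 88.5 ± 28.9 CPM (SD, n = 6 each), with at least 17 cells per library. Both transporters exceeded their whole-library level in 6 of 6 libraries in either cluster. These values are descriptions without a test.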
